A study of Mus musculus with 42 samples.

Results

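Keratins are the filament proteins of epithelial cells. They were taken here as every probe set of an Affymetrix Mouse430V2 array whose gene symbol is Krt followed directly by a number, which gave 48 genes of the 20672 probe sets measured. Each gene had 1 probe set. By textbook roles they fall into 4 wound keratins (Krt6a, Krt6b, Krt16 and Krt17), 3 basal keratins (Krt5, Krt14 and Krt15), 6 suprabasal keratins (Krt1, Krt2, Krt10, Krt77, Krt78 and Krt80), 5 of internal stratified epithelia, 6 of simple epithelia, 8 of the inner root sheath and companion layer of the hair follicle, 12 of the hair shaft and 4 others. On the GRCm38.p6 annotation 24 of the genes lie on chromosome 11 and 24 on chromosome 15.

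RNA came from skin of female mice on 42 arrays in 9 groups. The wounded animals were diabetic db/db mice, which lack a working leptin receptor. The methods give a BKS background for db/db mice and topical treatment of the wounds, although the labels name C57BL/6 as the strain. Skin bordering the wound was collected 24 h after 1 dose, on 4 arrays for the control and 5 for each of IL-22-Fc, VEGF and PDGF. On day 7, after doses on days 0, 2, 4 and 6, it was collected on 3 arrays for PDGF and 5 for every other group. The labels give 20 µg of VEGF, 50 µg of PDGF and, at 24 h, 50 µg of IL-22-Fc, while the methods give 50 µg for each and the design text 20 µg of IL-22-Fc. They call the control an anti-ragweed antibody, and the methods call it a control Fc protein. The remaining 5 arrays are skin without a wound or treatment. Its genotype is not in the labels, and its sample identifiers come from another numbering than those of the wounds, so that handling and wounding cannot be told apart. The methods give only an age range for the db/db mice. Ages and the animals behind each array are not in the labels, so a p-value measures the spread between arrays, which may be technical.

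A keratin filament pairs a type I with a type II protein. Basal keratinocytes make Krt5 with Krt14, and cells that leave the basal layer change to Krt1 with Krt10 and later to Krt2. Keratinocytes at a wound edge are known to switch on Krt6a, Krt6b, Krt16 and Krt17. Growing hair follicles make their own set, first in the inner root sheath and then in the shaft. IL-22 is a cytokine that acts on epithelial cells, VEGF acts mainly on blood vessels and PDGF mainly on fibroblasts.

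All levels are log2 of the deposited intensity, and differences between groups are log2 fold changes. Levels are compared only within a probe set, because probe sets differ in brightness (the Krt14 probe set read 5.15 to 7.36 and that of Krt5 12.02 to 13.66). Female mice lack Y-linked genes, and 5 of these, Sry not among them, read 2.31 to 3.78. Sry read 4.62 to 5.56, so that the signal of an absent transcript differs between probe sets and 3.78 serves only as a common mark. Of the 48 keratins, 31 lay above 3.78 on every array, 11 were at or below it on all arrays of at least 1 group, and 3 (Krt12, Krt13 and Krt222) never rose above it. A keratin was called higher or lower at a Benjamini-Hochberg adjusted p under 0.05, over all probe sets in limma, with a change of at least 1.5-fold. Krt6a and Krt6b are near-identical genes, so their probe sets may share signal.

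Untreated skin and control wounds give the course of the family without a growth factor. At 24 h 4 keratins were higher than in untreated skin and 7 lower, against 7.86% and 10.3% of all probe sets (18.2% in either direction). On day 7 the counts were 5 higher and 8 lower, against 7.40% and 8.30% (15.7%). The largest rises were those of Krt6b, Krt16 and Krt6a. Genes listed under other cell types moved in the same comparisons, and which cells made them was not tested. Of 6 neutrophil genes 5 were higher at both times, with a mean level of 5.88 to 6.39 in untreated skin, 10.11 to 10.55 at 24 h and 8.32 to 8.92 on day 7. All 5 adipocyte genes were lower at both times, and of 8 skeletal muscle genes 7 were lower at 24 h and 5 on day 7. Of 4 sebaceous gland genes 2 were lower at 24 h and 3 on day 7. Of 7 fibroblast genes 3 were lower at 24 h, while 5 were higher and 1 lower on day 7. Of 6 keratinocyte markers, Krt5 and Krt14 among them, 1 was lower at 24 h and none was called on day 7. Their part in the keratin changes was not tested.

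Krt6b, a type II wound keratin, read 6.67, 9.17, 3.31, 4.11 and 4.26 in untreated skin, 13.93, 13.95, 13.82 and 13.74 in control wounds at 24 h, and 14.34, 14.20, 14.28, 14.15 and 14.05 on day 7. Every wound array lay far above every untreated array, and untreated skin itself was widely spread. The difference from untreated skin was 8.36 ± 0.54 (SE) at 24 h and 8.70 ± 0.51 on day 7 (adjusted p = 1.1e-14 and 6.3e-16). Krt16, a type I partner of the Krt6 proteins, read 7.68, 10.49, 6.34, 7.75 and 6.88 in untreated skin and lay between 12.90 and 13.26 at 24 h and between 13.23 and 13.65 on day 7 in control wounds. No array of either time overlapped with untreated skin, and the differences were 5.24 ± 0.40 and 5.69 ± 0.38 (adjusted p = 6.5e-13 and 1.5e-14). Krt6a was 3.67 ± 0.25 and 3.92 ± 0.24 higher (adjusted p = 3.0e-14 and 9.4e-16). The second untreated array was the highest of its group for all of Krt6a, Krt6b and Krt16. The highest value of the whole table, 14.52, belongs to Krt6b in an IL-22-Fc wound, so little range was left above the wound levels of this probe set.

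Krt17, a type I keratin of wounded epidermis and of the hair follicle, behaved less uniformly. It read 11.15, 11.85, 10.96, 11.07 and 12.57 in untreated skin, 12.61, 12.74, 12.18 and 12.40 in control wounds at 24 h, and 11.71, 11.98, 11.91, 11.72 and 11.70 on day 7. Of the untreated arrays only the fifth reached the values of the 24 h wounds. Krt17 was 0.96 ± 0.21 higher than untreated at 24 h (adjusted p = 0.00031, and 0.053 in a fit of these 2 groups alone) and then fell by 0.68 between 24 h and day 7 (SE 0.21, adjusted p = 0.012).

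**Figure D1:**
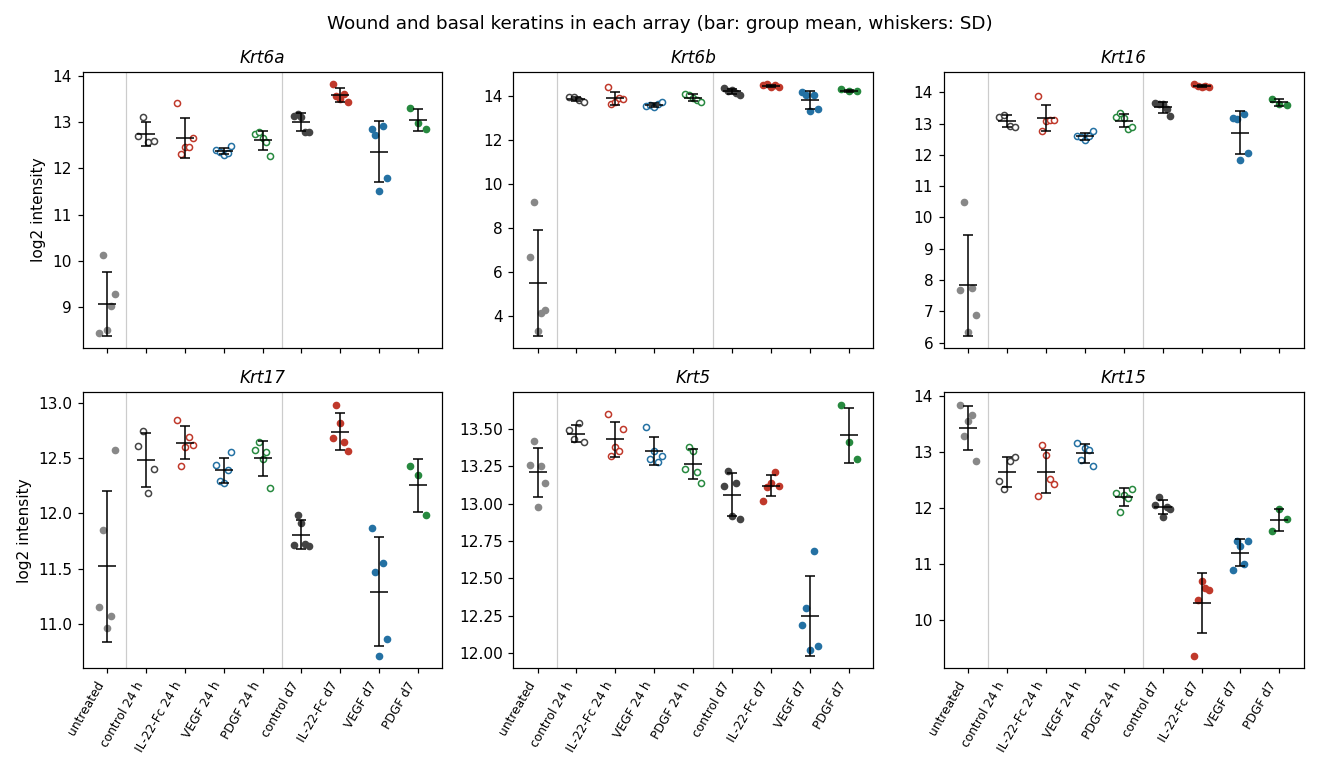
Log2 intensity of 4 wound and 2 basal keratins on each of the 42 arrays, by group, with the group mean (bar) and SD (whiskers); open points are wounds at 24 h. Krt6a, Krt6b and Krt16 separate all wounds from untreated skin, and Krt15 reads 9.35 to 10.69 with IL-22-Fc on day 7 against 11.84 to 12.20 in the control.

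Basal and suprabasal keratins did not move as blocks. Krt15, a basal keratin of the bulge and of resting epidermis, was lower in control wounds than in untreated skin at both times, by -0.79 ± 0.20 at 24 h and -1.42 ± 0.19 on day 7 (adjusted p = 0.0016 and 1.6e-07), whereas Krt5 and Krt14 were not called. Among suprabasal keratins Krt77, Krt78 and Krt80 were lower at 24 h, with differences of -0.63 to -1.19. On day 7 Krt77 was still lower, with a difference of -1.28 ± 0.18 (adjusted p = 5.1e-07), while Krt1 was 0.69 ± 0.11 higher (adjusted p = 5.9e-06). Krt2 was called higher too, by 2.81, although its lowest control array (4.59) lay within untreated skin (4.05 to 4.74). Between 24 h and day 7 in the control, 3 keratins rose and 4 fell, against 7.19% and 6.05% of all probe sets (13.2% in either direction). Krt2 (3.18 ± 0.56), Krt1 (1.11 ± 0.12) and Krt78 (0.68 ± 0.15) rose, and Krt17, Krt15, Krt77 and Krt79 fell, with differences of -0.60 to -0.68. Some of these calls lay near 1.5-fold. Without the second control array at 24 h the difference from untreated skin was -0.58 for Krt77 and -0.54 for Krt8 and the Krt78 rise was 0.48. The Krt8 difference was -0.55 without the fifth untreated array. The Krt15 fall lost its call without the third control array of day 7 or the third or the fourth of 24 h (-0.54 to -0.58), and that of Krt79 without the third or the fifth of day 7 or the third of 24 h (-0.54 to -0.58). Outside the epidermal layers, Krt8 and Krt23, keratins of simple epithelia, and the hair keratin Krt32 were lower than in untreated skin at both times. The differences at 24 h and on day 7 were -1.28 ± 0.15 and -1.25 ± 0.15 for Krt23 and -1.79 ± 0.26 and -2.07 ± 0.24 for Krt32. Krt24, Krt75 and Krt79 were called lower on day 7 and not at 24 h. The Krt75 change was -1.78 ± 0.42 (adjusted p = 0.00081, and 0.088 in a fit of these 2 groups alone), and without the untreated array that stands apart in hair keratins (described with the hair keratins) it was -0.97 ± 0.16.

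**Figure D2:**
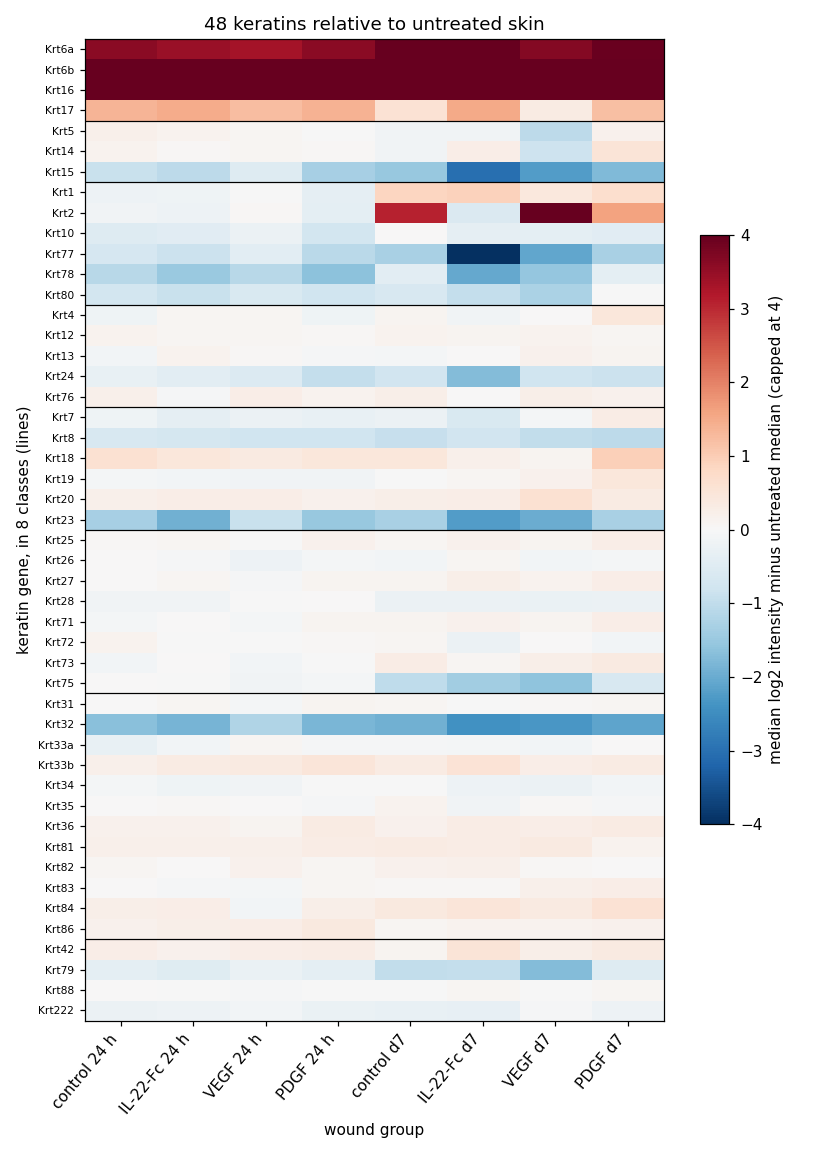
Group median of log2 intensity minus the untreated median for all 48 keratins (rows, in 8 classes separated by lines) in the 8 wound groups (columns), on a colour scale capped at 4. Krt6a, Krt6b and Krt16 are high in all wounds, and most hair keratins are near 0. The Krt2 median is high on day 7 in control, VEGF and PDGF wounds but not with IL-22-Fc. The lowest control (4.59) and the lowest PDGF array (4.62) of that day lay within untreated skin (4.05 to 4.74).

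On day 7 IL-22-Fc lowered 6 keratins and raised 1, against 0.803% and 1.49% of all probe sets (2.30% in either direction). The 6 were the suprabasal Krt77, Krt2 and Krt78, the basal Krt15, Krt23 and Krt24, and the 1 that rose was Krt17. The 7 make up 14.6% of the 48 keratins. The principal basal keratin Krt5 and the suprabasal Krt1 and Krt10 were not among them.

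The largest changes were those of Krt2 and Krt77, type II keratins of the suprabasal layers whose genes lie close together on chromosome 15, with Krt1 between them (GRCm38.p6, Krt2 at 101810689 to 101818956, Krt1 at 101845426 to 101850786, Krt77 at 101858731 to 101869706). Promoter sequence was at hand for 32 of the 48 keratins from RefSeq (GRCm38.p6), as the 250 bases before the listed start. The sequences of Krt2, Krt77 and Krt24 are printed because these 3, of the 5 keratins lower with IL-22-Fc that had an entry, hold the letters TATATA. They were picked after the changes were seen. Capitals mark matches of TATATA, beginning 28 to 30 bases before the start, and in Krt24 also the STAT-type motif TTCNNNGAA, which begins 121 bases before it. All 3 are on the minus strand and read 5′ to 3′ along the gene. The listed start of Krt2 lies inside the span of its gene.

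Krt2, chr15:101818170-101818419: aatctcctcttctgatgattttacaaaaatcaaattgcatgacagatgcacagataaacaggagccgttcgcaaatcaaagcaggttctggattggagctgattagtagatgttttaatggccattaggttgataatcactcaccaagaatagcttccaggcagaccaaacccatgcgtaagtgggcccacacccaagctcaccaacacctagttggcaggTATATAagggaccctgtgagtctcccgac
Krt77, chr15:101869706-101869955: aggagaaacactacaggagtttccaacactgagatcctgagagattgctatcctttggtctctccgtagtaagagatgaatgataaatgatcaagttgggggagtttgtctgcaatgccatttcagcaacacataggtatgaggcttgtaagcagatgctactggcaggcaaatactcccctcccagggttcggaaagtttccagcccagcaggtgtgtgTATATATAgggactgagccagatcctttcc
Krt24, chr11:99285263-99285512: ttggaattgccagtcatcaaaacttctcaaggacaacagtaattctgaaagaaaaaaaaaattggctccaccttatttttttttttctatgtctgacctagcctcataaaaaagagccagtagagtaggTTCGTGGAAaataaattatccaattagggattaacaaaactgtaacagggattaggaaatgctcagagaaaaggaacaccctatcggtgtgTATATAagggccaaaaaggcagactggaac

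TATATA occurred in 8 of the 32 keratin promoters, against 5.25% of 32841 mouse promoters of the same length, and TTCNNNGAA in 4, against 7.02%. The AP-1-type motif TGANTCA occurred in 1 (6.75% of all promoters) and the AP-2-type motif GCCNNNGGC in 3 (13.7%), none of them among the 5 keratins lower with IL-22-Fc. Each motif reads the same on both strands, and the overlapping TATATA matches of Krt77 are printed as 1 run. A match is only a run of letters, and TATATA also stands in the promoter of Krt36, a hair keratin that was called in no comparison.

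Krt77 read 12.22, 12.40, 12.51, 12.35 and 12.46 in control wounds on day 7 and 8.05, 8.87, 9.77, 8.66 and 8.67 with IL-22-Fc. The groups were far apart, and the third IL-22-Fc array was the highest of its group. The change was -3.59 ± 0.23 (12-fold lower, adjusted p = 2.8e-09). Levels with VEGF were 11.06, 11.64, 11.68, 11.02 and 11.88 and with PDGF 12.05, 12.81 and 12.40, so IL-22-Fc lay below every array of the other groups at this time and of untreated skin, where Krt77 read 13.48 to 13.78.

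Krt2, a keratin of the upper epidermal layers, read 4.59, 8.25, 6.67, 7.23 and 8.71 in control wounds on day 7, 3.03, 3.65, 3.58, 3.78 and 3.54 with IL-22-Fc, 8.53, 7.63, 8.89, 8.93 and 9.41 with VEGF and 4.62, 5.76 and 9.18 with PDGF. All IL-22-Fc arrays lay within the range of those 5 Y-linked genes, and control and PDGF wounds were widely spread. The fitted change with IL-22-Fc was -3.57 ± 0.69 (adjusted p = 0.0028), but its exact size is not known because the lower level is no more than a bound. With IL-22-Fc set at 3.78, Krt2 was at least 9.92-fold higher in the control (3.31 on the log2 scale), at least 29.8-fold with VEGF and at least 6.68-fold with PDGF. The PDGF bound fell to 2.66-fold without the third PDGF array, and the call against PDGF was then lost (-1.67, adjusted p = 0.074). Untreated skin read only 4.05 to 4.74 and wounds at 24 h 3.31 to 5.02, so Krt2 levels above 5.02 occurred on day 7 alone and on no IL-22-Fc array.

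Krt78, another suprabasal type II keratin, read 9.05, 9.04, 8.77, 9.05 and 8.49 in the control and 7.20, 7.43, 7.61, 7.59 and 7.31 with IL-22-Fc, with no overlap. The change was -1.45 ± 0.11 (adjusted p = 4.1e-08). Krt15 read 12.05, 12.20, 11.84, 12.02 and 11.97 in the control and 9.35, 10.35, 10.69, 10.56 and 10.52 with IL-22-Fc. The groups did not overlap, and the first IL-22-Fc array lay well below the other 4. The change was -1.72 ± 0.19 (adjusted p = 4.0e-06). Krt23 changed by -1.09 ± 0.15 and Krt24 by -0.82 ± 0.18 (adjusted p = 9.8e-05 and 0.0096), again without overlap between the groups. Krt24 read 4.77 to 5.21 with IL-22-Fc, within the 4.62 to 5.56 of absent Sry, so background may limit the size of its change.

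**Figure D3:**
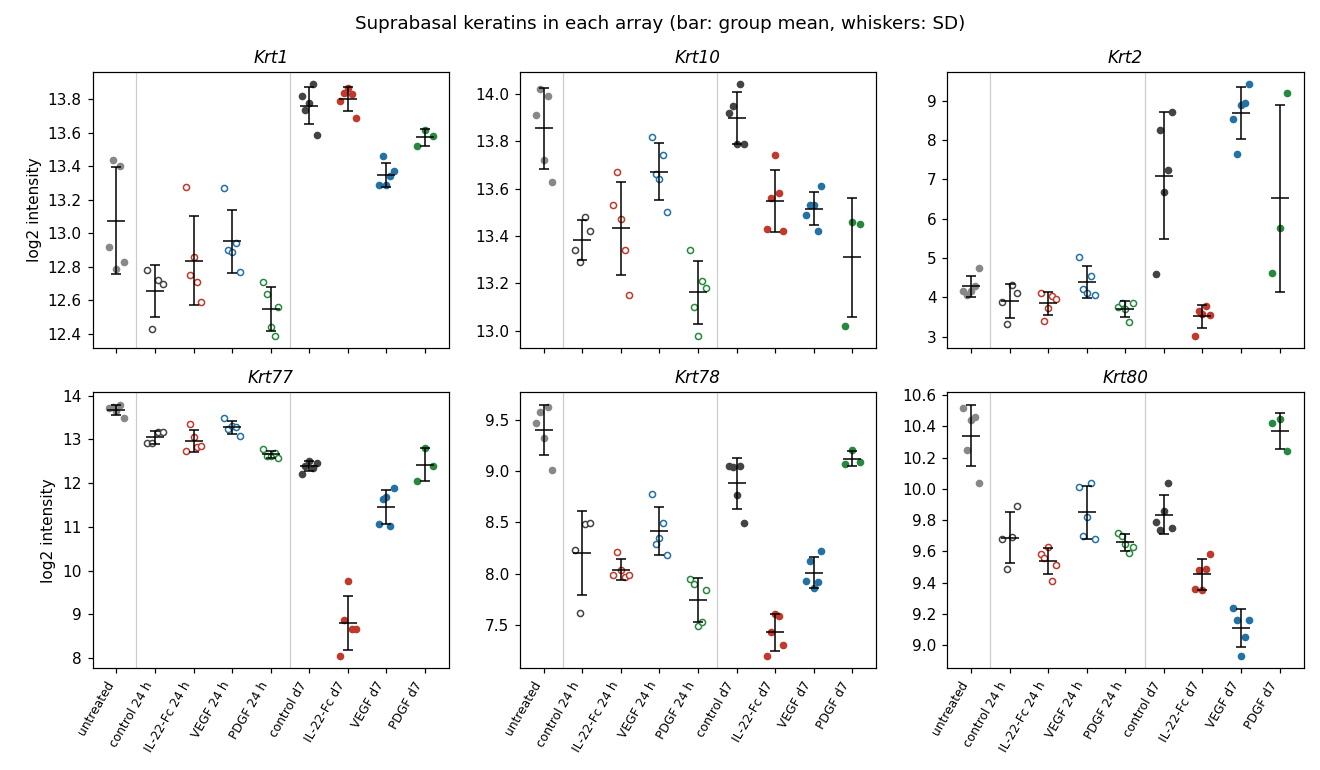
Log2 intensity of the 6 suprabasal keratins on each array, by group, with the group mean (bar) and SD (whiskers); open points are wounds at 24 h. With IL-22-Fc on day 7 Krt77 reads 8.05 to 9.77 and Krt2 3.03 to 3.78, below all control arrays of that day, while Krt1 overlaps with the control.

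The chief suprabasal pair did not follow. Krt1 read 13.82, 13.74, 13.78, 13.89 and 13.59 in the control and 13.79, 13.84, 13.87, 13.83 and 13.69 with IL-22-Fc. The groups overlapped throughout, and the change was 0.04 with a 95% interval of -0.11 to 0.18. Krt10 was lower on every IL-22-Fc array, but by only -0.35 ± 0.09 (adjusted p = 0.026), under the 1.5-fold threshold. Krt5 differed by 0.06 (95% interval -0.17 to 0.29).

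Of the wound keratins only Krt17 was called with IL-22-Fc on day 7. Krt17 was 12.68, 12.98, 12.82, 12.64 and 12.56 against the control values of 11.71, 11.98, 11.91, 11.72 and 11.70, a rise of 0.93 ± 0.17 (adjusted p = 0.0014). Krt16 read 14.25, 14.20, 14.17, 14.19 and 14.17 against 13.65, 13.63, 13.61, 13.45 and 13.23, a difference of 0.68 ± 0.21 that did not pass (adjusted p = 0.066). Krt6a differed by 0.59 ± 0.21 (adjusted p = 0.12) and Krt6b by 0.26 ± 0.13 (adjusted p = 0.30). The 3 that were not called also lay above the control on all 5 arrays, with the control of Krt6b itself at 14.05 or more. How many of all probe sets lay apart in this way was not counted.

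Genes that work with keratins were counted by lists. Of 20 keratin filament partners IL-22-Fc raised 2 and lowered 4. Lor and Ivl, cornified envelope proteins, changed by -2.44 ± 0.12 and -2.24 ± 0.23, Flg, which bundles keratin filaments, by -1.68 ± 0.19, and Pkp2 of the desmosome by -0.74 ± 0.13. The crosslinking enzymes Tgm3 and Tgm1 rose by 2.08 ± 0.19 and 1.25 ± 0.24. The list's median was 0.07 and that of all probe sets 0.00. Of 15 keratinocyte regulators 3 rose (Grhl3, Junb and Ovol1, by 0.62 to 0.96) and none fell. None of 6 keratinocyte markers, Krt5 and Krt14 among them, was called, and their mean level was 9.97 to 10.28 with IL-22-Fc against 9.59 to 10.05. Of 6 neutrophil genes 3 rose, with a mean level of 9.35 to 9.80 against 8.32 to 8.92, and of 5 adipocyte genes 2 fell, with a mean level of 8.15 to 8.66 against 8.76 to 9.28. Their part in the keratin changes was not tested. In bulk skin, fewer cells of a type and less RNA per cell cannot be told apart. The same holds for a rise, and whether other cells made the genes of a list was not tested.

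VEGF on day 7 gave the broadest fall, with 10 keratins lower and none higher, against 3.58% and 1.96% of all probe sets (5.55% in either direction). They were Krt5, Krt14 and Krt15 of the basal layer, Krt77, Krt78 and Krt80 of the suprabasal layers, the wound keratins Krt6a and Krt16, and Krt23 and Krt79. Their changes lay between -0.63 and -0.93.

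Krt5 read 12.19, 12.30, 12.02, 12.68 and 12.05 with VEGF against 13.12, 13.22, 12.92, 13.14 and 12.90 in the control, without overlap. The change was -0.81 ± 0.11 (adjusted p = 2.3e-05), and that of its partner Krt14 was -0.70 ± 0.12 (adjusted p = 0.00032). Krt14 read 5.15 to 5.61 with VEGF, near the 4.62 to 5.56 of absent Sry, so background may limit the size of its change. The same limit holds for the other comparisons of Krt14 with VEGF on day 7. Krt79, a keratin of the follicle opening and sebaceous duct, read 10.63, 10.87, 10.87, 10.82 and 10.79 against 11.55, 11.66, 11.49, 11.78 and 11.38, and Krt80, a keratin of differentiating epithelia, 9.24, 9.16, 8.93, 9.05 and 9.16 against 9.79, 9.74, 9.86, 10.04 and 9.75. Neither overlapped with the control, and the changes were -0.78 ± 0.09 and -0.73 ± 0.08 (adjusted p = 2.4e-06 and 2.6e-06). Krt1 and Krt10 also lay below the control on every VEGF array, by -0.41 ± 0.07 and -0.38 ± 0.09, under 1.5-fold. Krt2 went the other way, at 1.59 ± 0.69 above the control, with overlapping groups and an adjusted p of 0.15 (0.043 when all 42 arrays were fitted together).

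The wound keratins with VEGF rested on 2 arrays. Krt16 read 13.18, 13.13, 11.85, 13.30 and 12.06, and Krt6a 12.85, 12.71, 11.52, 12.92 and 11.79. The third and the fifth arrays were low in both and also had the lowest mean level of 6 neutrophil genes in the group (8.15 and 8.07, against 8.93 to 9.78 in the other 3). Without them the Krt16 change was -0.31 ± 0.10 (adjusted p = 0.045, under 1.5-fold) and that of Krt6a -0.17 ± 0.12 (adjusted p = 0.51), in place of -0.81 ± 0.21 and -0.63 ± 0.21. Krt6a also lost its call without any one of the first 4 control arrays (-0.59 to -0.69, adjusted p = 0.057 to 0.10). In a fit of all 42 arrays neither passed (adjusted p = 0.19 for Krt16 and 0.079 for Krt6a). The other 8 remained called without these arrays, with Krt5 at -0.67 ± 0.11, and Krt32 was called in addition, which gave 9 keratins against 5.21% of all probe sets.

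Other keratinocyte genes moved with these keratins. Of 20 filament partners 13 were lower with VEGF, among them the desmosomal Pkp1, Pkp3, Jup and Dsp and the cornified envelope genes Ppl and Evpl, and the list's median was -0.69 against -0.01 for all probe sets. Of 6 keratinocyte markers 5 were lower, Krt5 and Krt14 included, and their mean level was 9.02 to 9.35 against 9.59 to 10.05 in the control, without overlap. Of 15 regulators 6 were lower. Of 5 adipocyte genes 4 were lower, and of 7 fibroblast genes none was called. Their part in the keratin changes was not tested.

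**Figure D4:**
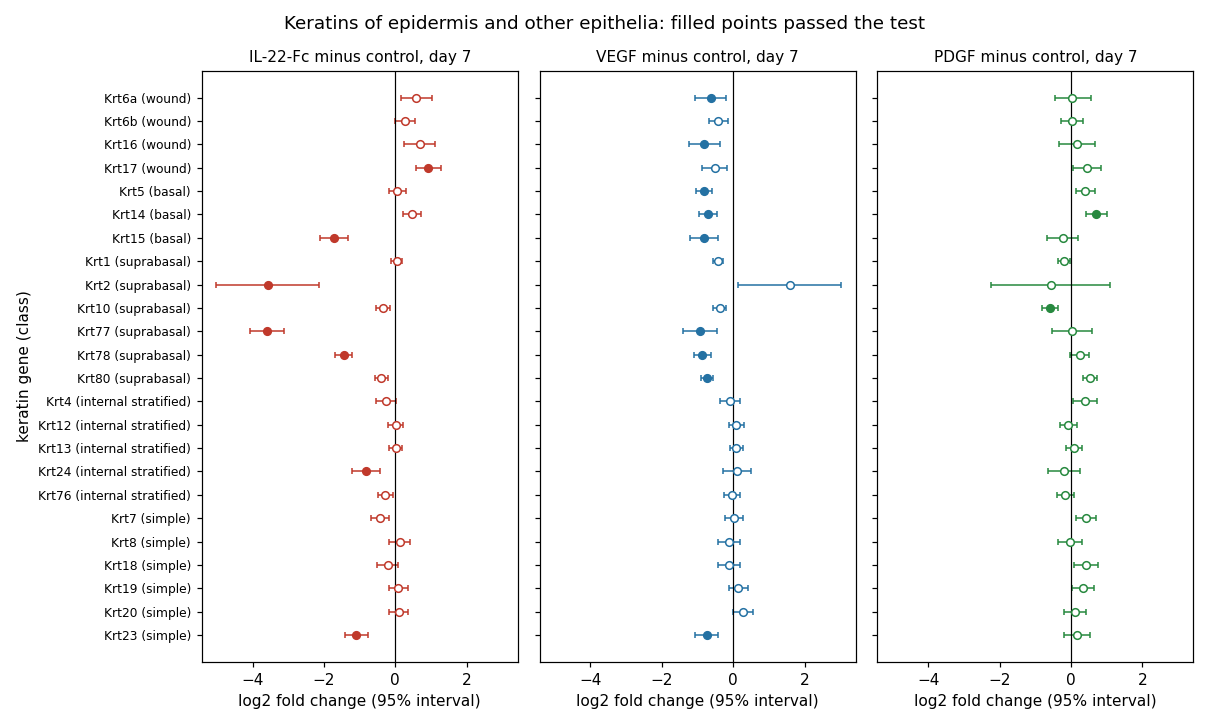
Log2 fold change against the day 7 control, with its 95% interval, for the 24 keratins of epidermis and other epithelia under each treatment; filled points passed the test. Krt77 falls by 3.59 with IL-22-Fc, the Krt2 point of -3.57 rests on IL-22-Fc arrays at 3.78 or less and has a bound of 3.31 for its size, 9 keratins in this set fall by less than 1 with VEGF, and the filled PDGF points are Krt14 and Krt10.

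PDGF on day 7 raised 1 keratin and lowered 1, against 6.47% and 9.56% of all probe sets (16.0% in either direction). Krt14 read 7.09, 6.80 and 6.61 against 6.35, 5.89, 6.18, 6.15 and 6.05, a rise of 0.71 ± 0.14 (adjusted p = 0.00037), and Krt10 read 13.02, 13.46 and 13.45 against 13.92, 13.95, 13.79, 14.04 and 13.79, a change of -0.59 ± 0.10 (adjusted p = 0.00015). Neither overlapped with the control, and both lost their call when the first PDGF array was left out (0.58 and -0.44). Krt10 also lost it without the first, the second or the fourth control array (-0.55 to -0.58). The 5′ control probe sets, a sign of RNA quality, read 11.92 to 12.18 on the PDGF arrays and 12.89 or more on the other day 7 arrays, so a difference in RNA quality cannot be told apart from PDGF. With that level as a covariate the changes were 0.76 ± 0.43 and -0.51 ± 0.33 (adjusted p = 0.43 and 0.50), and 0.885% of all probe sets were called in place of 16.0%. Of 20 filament partners 3 were lower with PDGF, and of 15 regulators 4 were higher and 2 lower. Of 6 keratinocyte markers, Krt5 and Krt14 among them, 1 was higher (Krt14 itself) and 2 lower. The mean level of the 6 was 9.43 to 9.67 against 9.59 to 10.05 in the control. All 5 adipocyte genes were lower, with a mean level of 7.57 to 8.37 against 8.76 to 9.28, and so were 4 of 7 fibroblast genes, at 10.01 to 10.70 against 10.92 to 11.29. Of 6 neutrophil genes 1 was higher. Their part in the keratin changes was not tested.

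The 3 treatments were also compared with each other on day 7; these comparisons share arrays with those above. IL-22-Fc against VEGF gave 7 keratins higher and 4 lower, against 4.74% and 3.73% of all probe sets (8.48% in either direction). All 4 wound keratins were higher with IL-22-Fc, Krt16 by 1.49 ± 0.21, Krt17 by 1.44 ± 0.17, Krt6a by 1.22 ± 0.21 and Krt6b by 0.67 ± 0.13. Without the third and the fifth VEGF array the first 3 were smaller but still called (0.99 ± 0.10, 1.11 ± 0.12 and 0.75 ± 0.12). Krt6b was under 1.5-fold without the third VEGF array (0.55), the fifth (0.58) or both (0.38 ± 0.08). It also lost its call after quantile normalization (0.37) and in a fit of all 42 arrays (adjusted p = 0.42). Krt5, Krt14 and Krt79 were higher too, and Krt2, Krt77, Krt15 and Krt24 lower. IL-22-Fc against PDGF gave 11 lower and none higher, against 7.74% and 10.2% (17.9%), led by Krt77 (-3.62 ± 0.27) and Krt2 (-3.00 ± 0.80). The calls of Krt24, Krt18 and Krt4 were lost without the first PDGF array (Krt18 -0.57, Krt4 -0.49), the second PDGF array (Krt24 -0.49, Krt18 -0.58), the second IL-22-Fc array (Krt18 -0.57, Krt4 -0.56), the third PDGF array (Krt24 -0.44) or the third or the fifth IL-22-Fc array (Krt24 -0.58 and -0.56). VEGF against PDGF gave 11 lower and 1 higher, against 9.63% and 10.4% (20.0%), with Krt14 (-1.41 ± 0.14), Krt80 (-1.26 ± 0.09) and Krt5 (-1.21 ± 0.13) lowest, and Krt2 the one that was higher (2.16 ± 0.80, overlapping groups). The Krt2 call was lost without the first or the second PDGF array (1.21 and 1.78) or the third, the fourth or the fifth VEGF array (1.98 to 2.10). The Krt6a call was lost without either of the same PDGF arrays (-0.54 and -0.71) or the third or the fifth VEGF array (-0.47 and -0.54), and that of Krt77 without the second PDGF array (-0.77, adjusted p = 0.052). Without both of these VEGF arrays Krt6a (-0.21 ± 0.14), Krt16 (-0.47 ± 0.11) and Krt2 (1.84 ± 0.92, adjusted p = 0.14) lost their call against PDGF. Once the 5′ level was fitted as a covariate, neither comparison with PDGF gave a keratin call, against 0.706% of all probe sets for IL-22-Fc and 0.397% for VEGF. Of the 25 keratin calls of the 3 day 7 comparisons that hold PDGF, 10 had a difference as large or larger under the covariate, such as -1.28 ± 0.44 for Krt5 and -2.14 ± 0.78 for Krt6a in VEGF against PDGF, while the SE of all 25 rose 3.02 to 3.51 times.

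Compared with the control and both other treatments at once, 4 keratins were lower with IL-22-Fc (Krt15, Krt2, Krt77 and Krt24), of 30 such probe sets in the whole table. The call against PDGF was lost for Krt2 without the third PDGF array (-1.67, adjusted p = 0.074). For Krt24 it was lost without several single arrays, given above. With VEGF 5 were lower (Krt6a, Krt16, Krt5, Krt14 and Krt79), of 297, but Krt6a and Krt16 were not called against the control or PDGF without the third and the fifth VEGF array. With the 5′ level as a covariate no keratin was called between PDGF and IL-22-Fc or VEGF, so neither list would then hold a keratin. No keratin was higher with any treatment than in all other groups, where 175 probe sets were with IL-22-Fc, 274 with VEGF and 672 with PDGF, and none was lower with PDGF.

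At 24 h none of the 48 keratins was called in limma with IL-22-Fc, VEGF or PDGF, against 0.0967%, 0.102% and 0.914% of all probe sets. At an unadjusted p under 0.05 the counts were 3, 9 and 8 of 48, against 7.01%, 9.39% and 15.7% of all probe sets. With IL-22-Fc the smallest p was that of Krt23, which read 8.05, 8.65, 8.20, 8.28 and 7.76 against 8.72, 8.57, 8.85 and 8.97, a difference of -0.59 ± 0.14 (adjusted p = 0.18) with overlapping groups. Krt77, which was so low on day 7, read 12.74 to 13.35 against 12.91 to 13.18. With VEGF Krt23 differed by 0.49 ± 0.14 (adjusted p = 0.25), and Krt16, Krt6a and Krt6b by -0.26 to -0.47 (adjusted p = 0.39, 0.51 and 0.51). With PDGF Krt24 differed by -0.66 ± 0.18 (adjusted p = 0.061).

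The effect of each treatment was then compared between the times in 1 fit of 37 wound arrays. The IL-22-Fc effect on day 7 was lower than that at 24 h for 4 keratins and higher for 1, against 0.803% and 0.629% of all probe sets (1.43% in either direction). These were Krt77 (-3.51 ± 0.28), Krt2 (-3.51 ± 0.80), Krt15 (-1.73 ± 0.26), Krt78 (-1.29 ± 0.20) and Krt17 (0.78 ± 0.21, adjusted p = 0.048, a call lost in 14 of 19 fits that left 1 array out). The VEGF effect was lower for 10 and higher for none, against 4.38% and 1.62% (6.00%), led by Krt23 (-1.22 ± 0.21), Krt77 (-1.17 ± 0.28) and Krt15 (-1.15 ± 0.26). Of the 10, Krt5 was under 1.5-fold without the third and the fifth VEGF array of day 7 (-0.55 in place of -0.70), and Krt32 (-0.84) did not pass in a fit of all 42 arrays (adjusted p = 0.18). The PDGF effect was higher for 3 keratins, Krt14, Krt78 and Krt5, and lower for none, against 10.3% and 10.6% (20.9%). The Krt5 difference, 0.60 ± 0.14, was under 1.5-fold without the first PDGF array of day 7 (0.50), the third or the fifth control array of day 7 (0.57 and 0.56) or, of 24 h, the third control array (0.58) or the fifth PDGF array (0.57). With the 5′ level as a covariate 1 was above the thresholds, against 0.687% of all probe sets, and the Krt78 value changed sign to -0.30.

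The 20 hair keratins stood far higher as a set on 2 of the 42 arrays, the fifth untreated array and the fourth PDGF array at 24 h. The mean of the 8 inner root sheath and companion keratins was 11.92 on the first and 8.63 on the second, against 4.23 to 4.57 on the other 40, and that of the 12 hair shaft keratins 8.86 and 6.70, against 4.56 to 4.84. On the untreated array all 8 of the former class and 11 of the 12 shaft keratins were above each of the other 40, and on the PDGF array all 8 and 10 of the 12. The exceptions were Krt84 on the former (4.92, against 4.59 to 5.66) and Krt32 and Krt82 on the latter (6.70 and 3.55, against 5.01 to 8.21 and 2.63 to 3.70). How many of all probe sets stood above the other 40 on either array was not counted. On the 40 arrays Krt32 (5.01 to 8.21) and Krt75 (5.20 to 7.45) spanned the widest ranges of the 20.

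Krt25, a type I keratin of the inner root sheath, read 2.30, 2.33, 2.51, 2.48 and 13.14 in untreated skin and 2.60, 2.66, 2.58, 10.59 and 2.71 with PDGF at 24 h. On the other arrays it read 2.28 to 2.97, within the range of the 5 Y-linked genes or below. Krt71, its type II counterpart, read 12.66 and 10.02 on the 2 arrays and 5.46 to 6.07 elsewhere. Krt34, a hair shaft keratin, read 9.77 and 8.11, with 3.50 to 4.04 elsewhere.

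Other hair genes moved with them. The mean of 38 Krtap genes, which encode the matrix proteins between shaft keratins, was 7.35 and 6.90 on these arrays, against 3.40 to 3.63 on the others, and 35 and 34 of the 38 were above every other array. Of 17 other hair programme genes 14 and 4 were, again without a count over all probe sets. The mean of 7 melanocyte genes was 9.63 on the untreated array and 4.95 on the PDGF array, within the 4.59 to 5.30 of the rest. The untreated array also had the lowest 5′ control level of all 42, at 11.72, and the lowest Krt15 of its group, at 12.83. The part of RNA quality in these values was not tested.

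**Figure D5:**
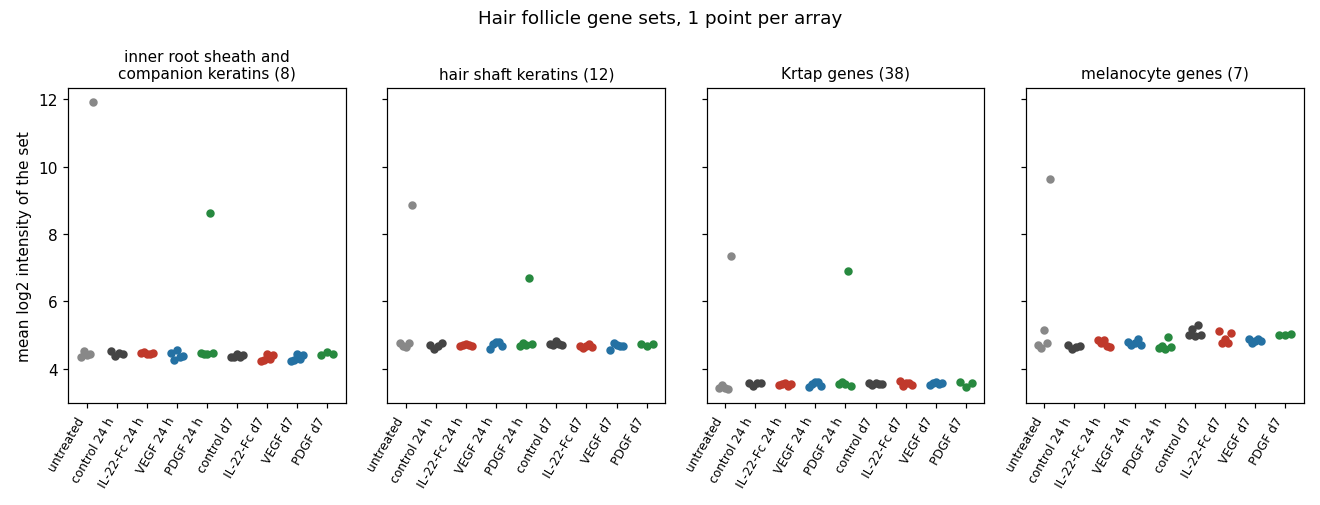
Mean log2 intensity of 8 inner root sheath and companion keratins, 12 hair shaft keratins, 38 Krtap genes and 7 melanocyte genes on each array (points), by group. The fifth untreated array is high in all 4 sets and the fourth PDGF array at 24 h in the first 3.

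These arrays set the mean changes of the hair keratins. Krt25 differed by -2.04 ± 1.32 between control wounds at 24 h and untreated skin and by 0.11 ± 0.09 without the 2 arrays, and by 1.72 ± 1.09 with PDGF at 24 h and by 0.13 ± 0.08 without them. Of the 20 hair keratins only Krt32 (24 h and day 7) and Krt75 (day 7) were called against untreated skin, with or without the 2 arrays. Without them Krt32 differed by -1.42 ± 0.18 at 24 h and -1.69 ± 0.17 on day 7. It read 8.21, 7.14, 7.52, 7.92 and 9.57 in untreated skin and 6.11 to 6.52 in control wounds at 24 h, without overlap. Without the 2 arrays Krt17 was 1.23 ± 0.18 higher at 24 h, Krt24 was called lower at 24 h and Krt78 on day 7, and Krt8 lost its call at 24 h (-0.55 ± 0.15).

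The remaining keratins changed little. Krt7, Krt18 and Krt4, of simple and internal epithelia, were called only between IL-22-Fc and PDGF, with differences of -0.64 to -0.85, at low levels (Krt18 read 3.11 to 3.76 with IL-22-Fc and 3.77 to 4.15 with PDGF). A total of 26 of the 48 keratins were called in none of the 15 comparisons. They were Krt19, Krt20, Krt76, Krt42, Krt88, the 3 that never rose above 3.78, and 18 of the 20 hair keratins.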

How the data were processed

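Skin RNA was hybridised to Affymetrix Mouse430V2 arrays. The authors normalized probe set intensity by RMA and kept the most variable probe set of each Entrez gene. The deposited intensity is on a linear scale, from 3.85 to 23537. The submitters' processing notes also name limma. The log2 of these deposited intensity values was taken here. The number of arrays limits the precision.

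limma 3.58.1 in R 4.3.3 (with data.table, version 1.17.8) was fitted over all 20672 probe sets, and p-values were adjusted after Benjamini-Hochberg. The annotation gives 1 gene symbol for 17928 probe sets, several for 79 and none for 2665. The fits held the 18 day 7 arrays, the 19 arrays at 24 h, all 42 arrays (untreated skin, and control over time) or 37 wound arrays (differences between times). A call needed an adjusted p under 0.05 and 1.5-fold. Genes were placed on RefSeq GRCm38.p6, which matched all 48 symbols. The code was tested on simulated data.

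All keratins were counted, and named by class, by call or as a principal keratin of their layer. The keratins, their classes, the gene lists and the tests were chosen with earlier results of these data known. Alternatives were quantile normalization, a filter on level, no fold threshold, array weights, the 5′ level as a covariate, other sets of arrays and each array left out. Fits without the arrays that stand apart were chosen after seeing the data.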

Additional observations from a re-analysis of the deposited data

Results flagged for a closer look

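For 28 keratins the highest or lowest array was compared with the rest of its group, in 224 groups of 4 or 5 arrays, by its gap to the nearest array as a share of the group's range. The share was above the 95% limit of Dixon's test 12 times, and chance gives about 1 in 20, so the total is close to chance. The hair keratins among the 28 were those whose group means varied most in their class. The fifth untreated array and the fourth PDGF array at 24 h set most of that variation. Their flags are therefore not an independent test. The fifth untreated array was the high one for Krt25 (0.981), Krt35 (0.963), Krt27 (0.957), Krt33a (0.914) and Krt75 (0.888). The fourth PDGF array at 24 h was the high one for Krt25 (0.983), Krt33a (0.983), Krt27 (0.951) and Krt35 (0.898). The other 3 were Krt24 in the third IL-22-Fc array at 24 h, high (0.780), Krt15 in the first IL-22-Fc array on day 7, low (0.744), and Krt42 in the fifth VEGF array on day 7, low (0.728).

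The effect of a treatment differed between day 7 and 24 h, by a test of the difference itself in limma, for 18 pairs of keratin and treatment (5 with IL-22-Fc, 10 with VEGF and 3 with PDGF, against 1.43%, 6.00% and 20.9% of all probe sets). With IL-22-Fc the difference was -3.51 for both Krt77 and Krt2, -1.73 for Krt15, -1.29 for Krt78 and 0.78 for Krt17, a call lost in 14 of 19 fits that left 1 array out. The Krt2 value rests on IL-22-Fc arrays of 3.78 or less. With VEGF it was -1.22 for Krt23, -1.17 for Krt77, -1.15 for Krt15, -1.08 for Krt78, -0.90 for Krt79, -0.89 for Krt80, -0.84 for Krt32, -0.71 for Krt1, -0.70 for Krt5 and -0.67 for Krt10. The Krt5 value was -0.55, under 1.5-fold, without the third and the fifth VEGF array of day 7, and the Krt32 call was lost in a fit of all 42 arrays (adjusted p = 0.18). With PDGF it was 1.02 for Krt14, 0.70 for Krt78 and 0.60 for Krt5. With the 5′ level as a covariate the Krt78 value was -0.30 and the Krt5 value 0.53 (adjusted p = 0.34).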

How the results depend on the processing

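No paired analysis was possible because the labels give no replicate numbers that join arrays of different groups. Of 103 keratin changes, quantile normalization lost the call of 4 and array weights of 5, with no reversal. With the 5′ level as a covariate 27 lost their call and 2 changed sign (Krt77 in VEGF against PDGF, 0.06, and Krt78 in the PDGF effect between the times, -0.30). That covariate left 0 keratins called with PDGF on day 7, 0 in IL-22-Fc against PDGF, 0 in VEGF against PDGF and 1 in the PDGF effect between the times, against 0.885%, 0.706%, 0.397% and 0.687% of all probe sets. The SE of the 25 keratin calls in the first 3 of these rose 3.02 to 3.51 times, and 10 of the differences were as large or larger. Without a fold threshold the counts were 13 with IL-22-Fc, 16 with VEGF and 8 with PDGF on day 7, 20 in VEGF against PDGF, 17 in control at 24 h against untreated skin and 7 in the PDGF effect between the times, against 5.45%, 14.7%, 34.9%, 39.7%, 39.5% and 32.3% of all probe sets. With only probe sets above the median level they were 7 in IL-22-Fc against PDGF and 1 with PDGF at 24 h, against 29.3% and 1.93% of those tested. With array weights they were 1 with PDGF on day 7 and 1 each with IL-22-Fc and PDGF at 24 h, against 15.5%, 0.121% and 2.19%. The cause of the other changes was not tested. With each array left out in turn, the counts on day 7 ran from 7 to 8 with IL-22-Fc, 9 to 11 with VEGF and 0 to 4 with PDGF. They ran from 2 to 6 in the PDGF effect between the times, from 0 to 1 with IL-22-Fc at 24 h and from 0 to 2 with PDGF at 24 h.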
